A study of Mus musculus with 4 samples.

Results

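Cxcr6+ T cells with NKT genes are liver T cells that carry transcripts of the chemokine receptor Cxcr6 together with Klrb1c, which encodes the NK1.1 receptor, or Zbtb16, which encodes the transcription factor PLZF. They were chosen cell by cell from UMI counts, a UMI being a tag that marks 1 captured transcript molecule. A cell was taken with at least 2 of Cd3d, Cd3e, Cd3g and Trac detected, at least 1 UMI of Cd3d or Cd3e, at least 1 of Cxcr6 and at least 1 of Klrb1c and Zbtb16 together. Cells with 2 or more of Ifng, Csf2, Cd40lg, Il4 and Tnf detected, with any Cd79a, or with 3 or more of the Kupffer cell genes Clec4f, Vsig4, Cd5l and Slc40a1 were left out. This gave 176 cells, called NKT-gene T cells here, of 1593 kept cells.

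The study profiled CD45+ leukocytes, the white blood cells of the organ, from healthy livers of photoactivated PA-GFP C57BL/6 mice by 10x 3′ single-cell RNA sequencing. All 4 libraries share this genotype and the photoactivation, which makes the PA-GFP protein fluoresce in the cells that were lit. PV1 and PV2 hold cells of the portal vein zone, where gut blood enters the lobule, and CV1 and CV2 those of the central vein zone, where it drains. The labels give neither the age nor the number of animals, and do not say if the 2 libraries of a zone are separate mice. All p-values therefore rest on the spread over libraries, which may be technical.

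Natural killer T (NKT) cells are T cells that use a nearly invariant T cell receptor to recognise lipids presented by the CD1d molecule. In mice its alpha chain joins the segments Trav11 and Traj18. PLZF sets their rapid effector programme during thymic development, and they are known in the mouse liver as resident cells that crawl along the sinusoids, held there by Cxcr6 and its ligand Cxcl16. Klrb1c is also carried by natural killer (NK) cells, by type 1 innate lymphoid cells (ILC1) and by some other T cells, and Cxcr6 by other resident T cells, so the rule can admit more than 1 lineage.

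The promoter windows of 2 genes of the rule and of 2 effector genes that the results turn on, Gzmb and Xcl1, are shown first. They come from the RefSeq table of GRCm38.p6 and run from 250 bases before to 50 bases after the gene start of that table, 5′ to 3′ on the strand of the gene. By the gene coordinates used for Cd8b1 below, the starts of Klrb1c and Gzmb, 128789215 and 56262260, lie outside these windows. Cxcr6 lies on the plus strand at chr9:123806227-123806526, Klrb1c on the minus strand at chr6:128788592-128788891, Gzmb on the minus strand at chr14:56262285-56262584 and Xcl1 on the minus strand at chr1:164935473-164935772. Capitals mark matches, on either strand, to a T-box motif (TCACACC), a RUNX motif (TGTGGT) or an AP-1 motif (TGANTCA).
Cxcr6: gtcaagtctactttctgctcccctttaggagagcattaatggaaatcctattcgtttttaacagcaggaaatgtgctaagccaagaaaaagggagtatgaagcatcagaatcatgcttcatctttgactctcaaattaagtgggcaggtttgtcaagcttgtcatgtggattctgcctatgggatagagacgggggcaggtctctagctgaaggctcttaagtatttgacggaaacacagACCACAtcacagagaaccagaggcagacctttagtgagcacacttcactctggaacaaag
Klrb1c: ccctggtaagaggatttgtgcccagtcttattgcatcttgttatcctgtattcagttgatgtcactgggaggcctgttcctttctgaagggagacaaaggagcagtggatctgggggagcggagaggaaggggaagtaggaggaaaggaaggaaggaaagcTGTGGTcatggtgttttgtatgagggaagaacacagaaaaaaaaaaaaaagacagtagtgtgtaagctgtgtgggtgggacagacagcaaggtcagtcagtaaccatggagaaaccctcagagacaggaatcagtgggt
Gzmb: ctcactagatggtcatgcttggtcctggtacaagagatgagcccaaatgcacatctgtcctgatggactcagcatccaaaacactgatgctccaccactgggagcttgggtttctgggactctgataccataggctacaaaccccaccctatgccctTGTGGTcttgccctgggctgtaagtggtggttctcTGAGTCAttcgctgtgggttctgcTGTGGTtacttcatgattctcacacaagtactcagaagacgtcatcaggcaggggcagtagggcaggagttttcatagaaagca
Xcl1: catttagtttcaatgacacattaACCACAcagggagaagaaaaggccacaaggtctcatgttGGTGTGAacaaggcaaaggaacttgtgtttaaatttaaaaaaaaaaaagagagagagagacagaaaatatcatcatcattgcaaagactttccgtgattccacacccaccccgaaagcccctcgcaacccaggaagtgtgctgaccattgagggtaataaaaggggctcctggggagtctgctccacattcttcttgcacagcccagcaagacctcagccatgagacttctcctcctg
The RUNX letters occurred once in the windows of Cxcr6, Klrb1c and Xcl1, and at positions 158 to 163 and 217 to 222 of the Gzmb window. The T-box letters occurred only in the Xcl1 window of these 4, at positions 63 to 69 on the opposite strand, and the AP-1 letters only in that of Gzmb, at positions 193 to 199. No matches overlapped. Of 32851 mouse promoter windows of this length, 3.98% held the T-box letters, 16.8% the RUNX letters and 7.81% the AP-1 letters. A match is a description of the letters and not a binding site.

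The deposited matrices held 588 to 755 barcodes and 2741760 to 4373488 UMIs per library, and 333 to 512 cells per library passed the limits of at least 200 genes and at most 10% mitochondrial UMIs. Among 1939 distinct barcodes, 282 occurred in several libraries; such a barcode was kept only in a library with at least 70% of its UMIs. Of the NKT-gene T cells, 1 in PV1 and 4 in CV2 had such a barcode, and 0 were marked as doublets.

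The number of NKT-gene T cells was 58 in PV1, 41 in PV2, 47 in CV1 and 30 in CV2. Their median depth was 6443.5 and 5720 UMIs per cell in PV1 and PV2, and 5640 and 6394.5 in CV1 and CV2. Median mitochondrial shares were 2.50% and 2.40% in the PV libraries and 2.38% and 2.15% in the CV libraries, so depth and this sign of cell quality differed little between zones. Summed, these cells gave 369587, 243422, 279602 and 186265 UMIs in PV1, PV2, CV1 and CV2. Levels below are CPM, counts scaled to a total of 1000000 in each of these sums, and sets of 4 values run in this order of libraries.

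The genes that chose the cells are described without a test. Cxcr6 stood at 1034 and 941 CPM in PV1 and PV2 and at 751 and 768 CPM in CV1 and CV2, with a median of 5 UMIs per cell and a highest value of 19. Klrb1c was at 517 and 382 CPM in the PV libraries and at 415 and 349 CPM in the CV libraries, and was detected in 167 of the 176 cells. Zbtb16 was sparse, with 43 UMIs in 40 cells and 51.4, 49.3, 28.6 and 21.5 CPM. In most cells, therefore, the NKT gene that admitted the cell was Klrb1c: 136 cells had Klrb1c alone, 31 had both genes and 9 had Zbtb16 alone. At the limits of the rule, 16 cells had exactly 1 Cxcr6 UMI and 53 had exactly 1 UMI of Klrb1c and Zbtb16 together, while 14 T cells with an NKT gene and no Cxcr6 UMI fell just outside. Of the 4 CD3 complex and receptor genes of the rule, 145 cells had all and 10 had only 2.

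The label was checked against receptor genes that the rule did not use. Trbc2, a constant segment of the T cell receptor beta chain, was detected in 166 of 176 cells. The invariant chain left only traces, as Trav11 was found in 14 cells with 17 UMIs and Traj18 in 8 cells with 8 UMIs. Segments of the variable part lie far from the 3′ end that these libraries read, so these shares of cells with a UMI do not measure how many cells carry the invariant receptor. Trav11 was seen in 1 of 59 T cells with Cxcr6 and no NKT gene, in 1 of 82 T cells with neither, in 0 of 35 NK cells and ILC1 and in 0 of 162 B cells, for which a count of 0 allows shares of up to 8.57% and 1.85%. After thinning each cell to 3000 UMIs, the share with Trav11 was 5.45% of NKT-gene T cells, 1.89% of T cells with Cxcr6 alone and 0% of T cells with neither. Traj18 was seen in 2 of 59 T cells with Cxcr6 alone (3.39%, against 4.55% of NKT-gene T cells) and in none of the 82 T cells with neither, the 35 NK cells and ILC1 or the 162 B cells. After thinning, its share was 1.21% in NKT-gene T cells and 3.77% in T cells with Cxcr6 alone, the reverse of the order for Trav11, and with 2 cells in each class this order cannot be read as a difference. Trbv13-2, a beta segment frequent in mouse NKT cells, was found in 20 of 176 NKT-gene T cells, 5 of 59 cells with Cxcr6 alone and 3 of 82 cells with neither.

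The coreceptors also differed between the classes, as tested further on. Cd8b1, the beta chain of CD8, which lies at chr6:71322788-71337494 on the plus strand of GRCm38, had 0 UMIs in 176 NKT-gene T cells, which allows a share of up to 1.70% of cells with a captured UMI and sets no limit on the cells that express the gene. It was detected in 14 of 59 T cells with Cxcr6 alone and in 31 of 82 T cells with neither. Cd8a was detected in 6, 12 and 25 cells of these 3 classes. Cd4 was found in 37 NKT-gene T cells (21.0%, 95% Wilson interval 15.7 to 27.6%), in 20.3% of T cells with Cxcr6 alone and in 32.9% of T cells with neither, against 1 of 162 B cells, which serve here as the level of free RNA. The median depth was 6131.5 UMIs in NKT-gene T cells, 5091 and 5416 in the other T cell classes, 4905 in NK cells and ILC1 and 3734 in B cells.

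Gamma chain transcripts were frequent although the delta chain was rare. Tcrg-C1, Tcrg-C2 and Tcrg-C4, constant segments of the gamma chain, were detected in 73, 62 and 58 of 176 NKT-gene T cells, against 6, 7 and 2 of 82 T cells with neither Cxcr6 nor an NKT gene. They were also frequent in the classes nearest by the rule, in 18, 17 and 15 of 59 T cells with Cxcr6 alone and in 116, 105 and 129 of 320 Cxcr6+ T cells with NKT genes and several cytokine genes. After thinning, Tcrg-C4 was found in 20.6% of NKT-gene T cells and 26.4% of T cells with Cxcr6 alone, and it was also found in 14 of 35 NK cells and ILC1. Trdc, the constant segment of the delta chain and the defining gene of gamma delta T cells, was found in 7 of 176 and 4 of 82 cells. These gamma segments are close relatives and share sequence, so the split of reads among them is uncertain. The gamma delta marker list summed to 593, 624, 637 and 510 CPM in NKT-gene T cells, with 5 or 6 of its 6 genes detected in each library.

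**Figure D1:**
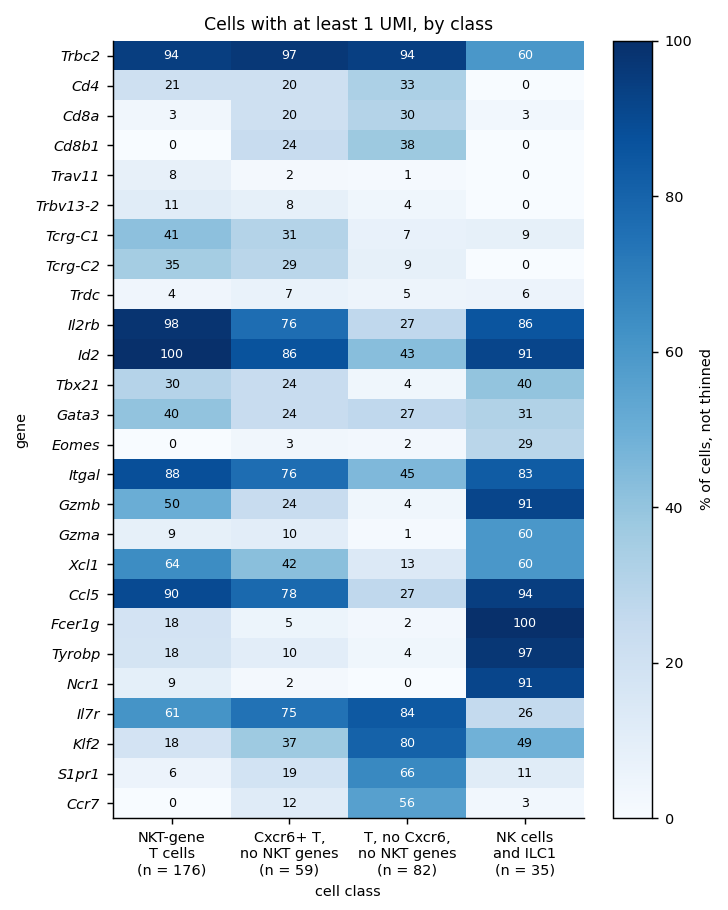
Share of cells with at least 1 UMI of each gene (rows) in NKT-gene T cells and 3 other classes (columns), in % of cells, without thinning. Cd8b1 and Ccr7 were at 0% in the 176 NKT-gene T cells, Il2rb was found in 173 and Id2 in all of them, and Fcer1g and Tyrobp were in 18.2% and 17.6%.

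Markers of other cell types were low. Of the 7 T cell markers, 7 were detected in every library, at 6632, 6413, 6123 and 5825 CPM. Cd3d, Cd3e, Cd3g and Trac on this list are genes of the rule, so their detection was set in advance and does not check the label. The NK cell and ILC1 list, which includes Klrb1c itself, summed to 690, 731, 776 and 827 CPM, against 4936, 3938, 2754 and 3891 CPM in NK cells and ILC1. Of its 8 genes, 5, 5, 6 and 6 were detected in NKT-gene T cells of PV1, PV2, CV1 and CV2. Ncr1, Klre1, Prf1 and Itga2 were detected in every library, while Eomes, a factor of NK cells, was at 0 UMIs in each. The Kupffer cell list was at 5.41, 140, 50.1 and 59.1 CPM, but its genes Clec4f, Vsig4, Cd5l and Slc40a1 were limited by the rule. The hepatocyte list was at 5.41, 69.8, 3.58 and 32.2 CPM, and the 6 genes of sinusoidal endothelium were all at 0. The B cell list was at 119 to 160 CPM, nearly all of it Ighm, with Cd79a at 0 by the rule. Neutrophil markers summed to 61.6 to 195 CPM, dendritic cell markers to 10.7 to 164 CPM, plasma cell markers to 50.1 to 65.7 CPM and erythroid markers to 0 to 14.3 CPM.

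NKT-gene T cells made up 17.4% and 8.01% of the kept cells in PV1 and PV2, and 12.6% and 7.98% in CV1 and CV2. The zones overlapped, with a difference of 2.41 percentage points between the PV mean and the CV mean (two-sided exact permutation p = 0.667). As a share of T cells that passed the same limits they were 56.3% and 48.8% in the PV libraries and 69.1% and 39.5% in the CV libraries (exact permutation p = 1). As a share of Cxcr6+ T cells they were 65.9% and 74.5% in the PV libraries and 92.2% and 73.2% in the CV libraries (exact permutation p = 0.667). With 2 libraries against 2 the smallest possible p is 0.333, so no zone difference in abundance could pass a threshold of 0.05. The share of kept cells turned to -2.30 points without PV1, and the share of T cells to 2.02 points without PV2 and 13.1 points without CV1.

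**Figure D2:**
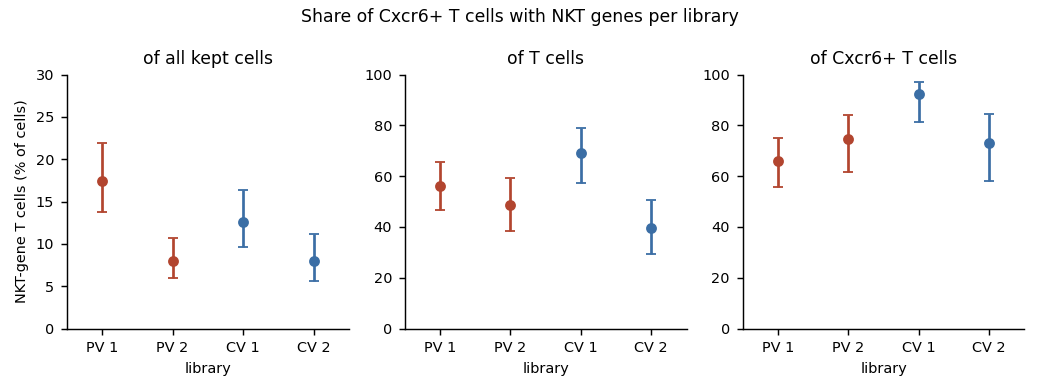
NKT-gene T cells as a share (% of cells) of all kept cells, of T cells and of Cxcr6+ T cells in each library; points are shares, bars are 95% Wilson intervals that cover counting error only, red marks PV and blue marks CV libraries. PV1 had the highest share of kept cells at 17.4% and CV1 the highest share of Cxcr6+ T cells at 92.2%.

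NKT-gene T cells were compared first with T cells that had no UMI of Cxcr6, Klrb1c or Zbtb16 and passed the same limits, 15, 27, 12 and 28 cells in PV1, PV2, CV1 and CV2. They had more transcript of killer cell lectin receptors, cytotoxic granule genes, receptors of IL-2 and of inflammatory chemokines, and almost none of the genes of lymph node homing. The genes of the rule were left out of the test. Because the rule splits cells by these genes, a gene that varies with them across cells differs between the classes partly by that choice. Of 2415 genes tested, 350 passed the test (14.5%), 151 of them higher (6.25%) and 199 lower (8.24%) in NKT-gene T cells. The count was 214 with DESeq2 and 164 without PV2.

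Gzmb, which encodes the serine protease granzyme B, was at 317, 715, 637 and 1702 CPM in NKT-gene T cells and at 12.3, 0, 17.5 and 5.22 CPM in T cells without Cxcr6 or NKT genes, a log2 difference of 6.85 ± 0.45 (SE, edgeR adjusted p = 8.91e-08). Every library showed the difference, and 88 of 176 cells had a Gzmb UMI against 3 of 82 T cells and 0 of 162 B cells, which allows up to 1.85%. The 5 tested killer lectin receptor genes were all higher, with a median log2 difference of 4.24 over the list against -0.01 over all tested genes. Klrk1, the activating receptor NKG2D, stood at 284, 485, 300.4 and 574 CPM in NKT-gene T cells against 12.3, 0, 0 and 10.4 CPM (log2 difference 5.81 ± 0.44 SE, edgeR adjusted p = 2.45e-07). Klrc1, the inhibitory receptor NKG2A, differed by 4.24 and its activating relative Klrc2 by 4.83 on the log2 scale, with edgeR adjusted p of 8.54e-06 and 4.86e-06. These genes are close paralogs, so reads may be split among them.

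Of 18 tested genes of the type 1 programme, the genes shared by interferon-gamma-producing lymphocytes, 15 were higher and 0 lower in NKT-gene T cells, with a median log2 difference of 2.31. Among these 15, Klrd1, Klrk1, Klrc1 and Klre1 are also on the killer lectin receptor list. Gzmb, Nkg7, Ctsw and Fasl are also on the cytotoxic granule list, so these lists are not independent. Il2rb, the receptor chain for IL-2 and IL-15 on which NKT cells depend, was at 882, 850.4, 855 and 923 CPM in NKT-gene T cells and at 346, 65, 209.7 and 41.7 CPM in T cells without Cxcr6 or NKT genes (log2 difference 2.51 ± 0.35 SE, edgeR adjusted p = 0.000109). Its level was nearly the same in all 4 libraries of NKT-gene T cells, and each stood above its partner. Id2, a transcriptional regulator of innate-like lymphocytes, was at 1843, 1853, 1369.8 and 2008 CPM against 457, 104, 297 and 109.5 CPM (log2 difference 2.88 ± 0.30 SE, edgeR adjusted p = 6.01e-06). Nkg7, a granule membrane gene, differed by 1.66 and Ccl5, a chemokine that attracts T cells and monocytes, by 1.26. Xcl1, the chemokine that attracts cross-presenting dendritic cells, stood at 152, 411, 1102 and 741 CPM against 209.8, 0, 804 and 156 CPM and did not pass (edgeR adjusted p = 0.125). Tbx21, the master factor T-bet, did not reach the count needed for the test, with detection in 53 of 176 against 3 of 82 cells, or 18.2% against 1.45% after thinning to 3000 UMIs.

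Of 11 tested residency genes 6 were higher and 0 lower, and Itgal, the integrin chain of LFA-1 that retains lymphocytes in liver sinusoids, was at 460, 464, 433 and 521 CPM in NKT-gene T cells and at 197, 208, 175 and 78.2 CPM in T cells without Cxcr6 or NKT genes (log2 difference 1.35 ± 0.25 SE, edgeR adjusted p = 0.00133). Itga1, which binds collagen, differed by 2.21 (edgeR adjusted p = 0.0176). Cd69, a marker of recent activation and residency, did not pass, at 146, 201, 283 and 188 CPM against 370.2, 319, 122 and 219 CPM. Among receptors of chemokines and cytokines, Cxcr3 was at 289.5, 362, 261 and 285 CPM against 111, 19.5, 52.4 and 26.1 CPM (log2 difference 2.52 ± 0.36 SE, edgeR adjusted p = 0.000118). Ccr2 differed by 2.41 and Il2ra, the high-affinity IL-2 receptor chain, by 4.83, both past the test. Fgl2, which encodes fibrinogen-like protein 2, had 303, 333, 504 and 644 CPM in NKT-gene T cells against 49.4, 6.5, 17.5 and 5.22 CPM (log2 difference 4.58 ± 0.43 SE, edgeR adjusted p = 2.26e-06).

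Of 11 tested genes of recirculation and the naive state, 10 were lower in NKT-gene T cells and the median log2 difference was -3.27, also with the 2 genes at 0 UMIs set to their bounds. Ccr7, which guides lymphocytes into lymph nodes, had 0 UMIs in all 176 cells and 160.4, 208, 524 and 235 CPM in T cells without Cxcr6 or NKT genes. Set against a floor of 3 UMIs over the 4 libraries, it was at least 89.2-fold lower. Dapl1, a gene of naive T cells, was likewise at 0 UMIs and at least 149-fold lower, and Cd8b1 and Cd55 were at least 123-fold and 32.0-fold lower. S1pr1, the receptor for exit into blood and lymph, was at 10.8, 20.5, 14.3 and 5.37 CPM in NKT-gene T cells and at 185, 488, 192 and 287 CPM in the other class (log2 difference -4.59 ± 0.33 SE, edgeR adjusted p = 1.43e-07). Klf2, a factor that drives S1pr1, was at 18.9, 98.6, 114 and 156 CPM against 518, 1177, 664 and 574 CPM (log2 difference -3.27 ± 0.31 SE, edgeR adjusted p = 2.46e-06). Tcf7 and Lef1, factors of naive and memory T cells, differed by -3.27 and -2.09. Il7r, which sustains resting T cells, was still present at 476, 423, 458 and 327 CPM against 1086, 1229, 716 and 1189 CPM (log2 difference -1.57 ± 0.21 SE, edgeR adjusted p = 8.87e-05).

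In the receptor and coreceptor list 4 genes were higher, 4 lower and 7 not past the test. Tcrg-C1 stood at 149, 144, 100.1 and 85.9 CPM in NKT-gene T cells and 49.4, 19.5, 52.4 and 10.4 CPM in T cells without Cxcr6 or NKT genes (log2 difference 1.88 ± 0.42 SE, edgeR adjusted p = 0.00544), and Trgv2, a variable segment of the gamma chain, differed by 2.65. Cd4 was lower (log2 difference -1.45 ± 0.36 SE, edgeR adjusted p = 0.0107). Trbc2 did not pass, with a log2 difference of 0.01 ± 0.18 (SE). Gata3, the factor of T cell identity and type 2 responses, was at 73.1, 139.7, 118 and 69.8 CPM against 185, 84.6, 105 and 26.1 CPM and did not pass (edgeR adjusted p = 0.914). Of the 4 tested genes of the type 17 list, Rora, Tmem176a and Tmem176b were higher; Rora is also used by other innate-like lymphocytes, and the Tmem176 genes encode endosomal ion channels.

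**Figure D3:**
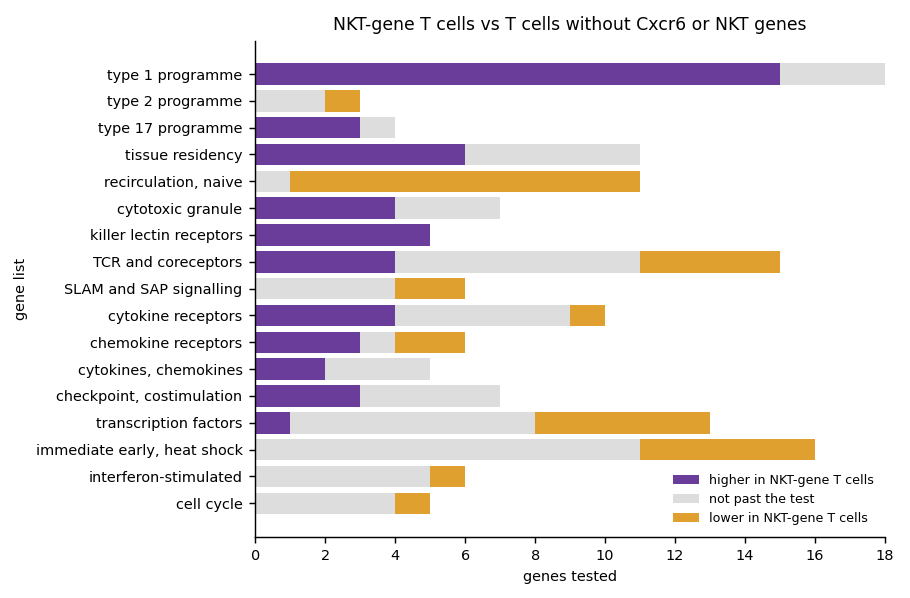
Number of tested genes (horizontal axis) in each of 17 gene lists (rows) that were higher in NKT-gene T cells, did not pass the edgeR test at an adjusted p of 0.05, or were lower, against T cells without Cxcr6 or NKT genes. The type 1 list had 15 of 18 genes higher and the recirculation and naive list 10 of 11 lower. Some lists share genes.

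**Figure D4:**
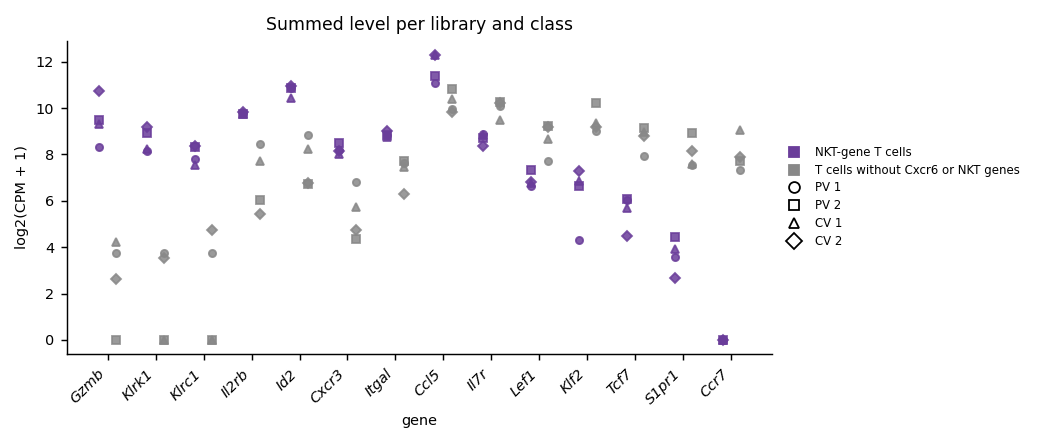
Summed level per library, as log2(CPM + 1), of 14 genes in NKT-gene T cells (purple) and in T cells without Cxcr6 or NKT genes (grey); the shape marks the library. Gzmb, Klrk1 and Klrc1 lie well above their grey points in each library, and Ccr7 lies at 0 in all 4 purple points.

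The class nearest to these cells by the rule was T cells with Cxcr6 and no UMI of Klrb1c or Zbtb16, 30, 14 and 11 cells in PV1, PV2 and CV2. CV1 held only 4 such cells, under the minimum of 10 for a sum, and was left out of this test. Of 2436 genes 4 passed (0.164%), and all 4 were lower in NKT-gene T cells. Cd8b1 was at 0 UMIs against 112, 362 and 145 CPM in PV1, PV2 and CV2, at least 47.4-fold lower with the floor of 3 UMIs taken over these 3 libraries. Cd8a was at 0, 37 and 21.5 CPM in NKT-gene T cells and at 130.2, 287 and 317 CPM in T cells with Cxcr6 alone (log2 difference -3.94 ± 0.54 SE, edgeR adjusted p = 0.0192). Klf2 was lower in each of the 3 libraries (log2 difference -2.32 ± 0.38 SE, edgeR adjusted p = 0.0477), as was Lyar, a nucleolar protein gene (log2 difference -3.25 ± 0.48 SE, edgeR adjusted p = 0.0278). In CV2 its 39 UMIs in cells with Cxcr6 alone came from only 2 cells.

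None of the genes that set NKT-gene T cells apart from other T cells in the higher direction passed against T cells with Cxcr6 alone. Gzmb was at 317, 715 and 1702 CPM in NKT-gene T cells and at 177, 837 and 9.06 CPM in T cells with Cxcr6 alone in PV1, PV2 and CV2, so PV2 went the other way (edgeR adjusted p = 0.745). Il2rb was at 882, 850.4 and 923 CPM against 633, 475 and 172 CPM, higher in every library but short of the threshold (log2 difference 1.06 ± 0.35 SE, edgeR adjusted p = 0.507). Klrc1 had the smallest p of the higher genes, at 225, 316 and 327 CPM against 59.2, 25 and 63.4 CPM (log2 difference 2.32 ± 0.40 SE, edgeR adjusted p = 0.0597). The count of calls moved between 6 and 25 when 1 of the 3 libraries was left out (25 without PV1, 13 without PV2 and 6 without CV2), and was 1 with stricter limits on cells and 1 without the library block. A cell with 1 missed UMI of Klrb1c falls into the comparison class, and 53 NKT-gene T cells stood 1 UMI from that line.

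NK cells and ILC1 share Klrb1c with NKT-gene T cells but lack the CD3 complex, and were taken as cells with none of the 4 CD3 genes and at least 2 of Ncr1, Klrb1c and Klre1. Only 4, 7, 8 and 16 such cells were found in PV1, PV2, CV1 and CV2, so sums of as few as 4 cells were used. The genes that chose either class were left out of the test. A gene that varies with them across cells, such as other killer lectin receptor or T cell receptor genes, can still differ partly by that choice. Of 1919 genes 165 passed (8.6%), 98 higher (5.11%) and 67 lower (3.49%) in NKT-gene T cells, and the count was 101 without CV2 and 97 with DESeq2. The NK cells of PV2 also held 7423 CPM of dendritic cell markers, against 37.1 to 97.2 CPM in the other libraries, and the part of this in the result was not tested.

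Beside T cell receptor genes, Ly6a was the clearest gene on the side of the T cells, at 587, 514, 415 and 354 CPM against 0 UMIs, at least 27.5-fold higher. Ly6a encodes the surface protein Sca-1. Themis, a signalling gene of the T cell receptor, was at least 4.78-fold higher, and Ifi27l2a, an interferon-induced gene, was at 455, 320.4, 275 and 376 CPM in NKT-gene T cells and 0, 0, 32.4 and 0 CPM in NK cells and ILC1 (log2 difference 5.78 ± 0.67 SE, edgeR adjusted p = 0.000182). Trbc2 was at 1729, 1771, 1477 and 1648 CPM against 147, 159.6, 356 and 655 CPM (log2 difference 2.37 ± 0.32 SE, edgeR adjusted p = 0.000524). Il7r was also higher (log2 difference 1.07 ± 0.31 SE, edgeR adjusted p = 0.049).

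On the other side, 8 of 10 tested killer lectin receptor genes were lower in NKT-gene T cells than in NK cells and ILC1, with a median log2 difference of -2.51. Klrb1b was at 16.2, 4.11, 53.6 and 42.9 CPM against 439.9, 426, 875 and 482 CPM (log2 difference -4.20 ± 0.39 SE, edgeR adjusted p = 2.6e-05). Zeb2, a factor of mature NK cells, was at 2.71, 0, 3.58 and 0 CPM against 684, 239, 162 and 161 CPM (log2 difference -6.95 ± 0.62 SE, edgeR adjusted p = 2.6e-05), so it was almost absent from NKT-gene T cells. The signalling adaptor Tyrobp was lower (log2 difference -3.55 ± 0.51 SE, edgeR adjusted p = 0.000749), and so was its relative Fcer1g (log2 difference -3.24 ± 0.57 SE, edgeR adjusted p = 0.00273). Gzma, which encodes granzyme A, was at 2.71, 879, 89.4 and 2502 CPM against 8749, 6784, 5638 and 4916 CPM (log2 difference -4.20 ± 0.98 SE, edgeR adjusted p = 0.0151). In NKT-gene T cells its level thus ranged from 2.71 CPM in PV1 to 2502 CPM in CV2. Ccl5 was lower in every library, at 2184, 2654, 5018 and 4993 CPM against 7527, 10402, 14322 and 18946 CPM (log2 difference -1.72 ± 0.10 SE, edgeR adjusted p = 5.12e-07).

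Among themselves, the cells with a Zbtb16 UMI were compared with those with Klrb1c alone. Only the PV libraries held at least 10 cells of each kind, 17 and 11 with Zbtb16 against 41 and 30 with Klrb1c alone. The split rests on 43 captured Zbtb16 UMIs in all, and whether it separates kinds of cells was not tested. Of 2103 genes 2 passed (0.0951%), 1 higher (0.0476%) and 1 lower (0.0476%) in cells with Zbtb16. Gzmb was at 154 and 135 CPM in cells with Zbtb16 and at 392 and 968 CPM in cells with Klrb1c alone in PV1 and PV2 (log2 difference -2.03 ± 0.33 SE, edgeR adjusted p = 0.00735), lower in both. In the CV libraries, which were too small for the test, it stood at 269 and 488 CPM against 728 and 1852 CPM. The other was Gm42418, which was higher (log2 difference 1.13 ± 0.11 SE, edgeR adjusted p = 2.18e-05), a gene model that overlaps ribosomal RNA repeats and is named here because it was 1 of only 2 calls. Gzmb did not pass with DESeq2, with relative log expression scaling, without the library block or in cells of at least 3000 UMIs, and Gm42418 did not pass with sums of as few as 4 cells. Over all libraries, Zbtb16 was detected in 7 of the 44 cells with Fcer1g, Tyrobp or Ncr1 described next, and in 33 of 132 others. Gzmb stood at 2069 CPM in the former and 277 CPM in the latter, and their part in its difference was not tested.

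A minority of the cells carried innate signalling genes. An Fcer1g, Tyrobp or Ncr1 UMI was present in 44 of 176 cells, a subset chosen after its values were seen and therefore described without a test. The subset held 3 of 58 cells in PV1, 14 of 41 in PV2, 16 of 47 in CV1 and 11 of 30 in CV2, or 5.17%, 34.1%, 34.0% and 36.7%. PV1 thus had few such cells while the other 3 libraries had about equal shares. Kupffer cell markers in NKT-gene T cells were also lowest in PV1, at 5.41 CPM against 140, 50.1 and 59.1 CPM in PV2, CV1 and CV2. The part of free RNA in these shares was not tested, and the B cell values below are pooled over libraries. Among 162 B cells, 9.26% had an Fcer1g UMI and 13.0% a Tyrobp UMI, against 18.2% and 17.6% of NKT-gene T cells, and Ncr1, the NK receptor NKp46, was in 0 of 162, which allows up to 1.85%, against 16 of 176.

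The subset differed from the other 132 cells in effector and receptor genes. All 7 cells with Trdc lay in it, and Trac, the alpha chain constant segment, was detected in 29 of 44 cells of the subset and in 124 of 132 others. It held 703 of 706 Gzma UMIs, 601 of 623 Ccl4 UMIs and 97 of 101 Ccl3 UMIs. Ccl3 and Ccl4 encode inflammatory chemokines. Gzmb was at 2069 CPM in the subset and 277 CPM in the others, Ccl5 at 7307 and 2231 CPM, and Xcl1 at 1472 and 250.2 CPM. Klrb1c was at 486 and 413 CPM, Cxcr6 at 736 and 946 CPM and Cd3e at 847 and 841 CPM. Trav11 was found in 1 of 44 cells of the subset and in 13 of 132 others, but Traj18 in 4 of 44 and 4 of 132, so the segments of the invariant chain went opposite ways. Il4, the type 2 cytokine that NKT cells release early, was found in 4 of 44 and 38 of 132, although Il4 was also a gene of the rule. Median depth was 6332 UMIs in the subset and 6014 in the others.

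The rule left out 320 cells that met every other condition but had 2 or more of the 5 cytokine genes, 71, 98, 73 and 78 in PV1, PV2, CV1 and CV2. They outnumbered the 176 NKT-gene T cells, and 150 of them had exactly 2 cytokine genes, while 127 NKT-gene T cells had exactly 1 and 49 had 0. Their median depth was 6701 UMIs. This comparison was added after the data were seen. Of 4820 genes 119 passed (2.47%), 28 higher (0.581%) and 91 lower (1.89%) in NKT-gene T cells, and 40 with DESeq2.

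The rule splits these classes by the number of cytokine genes detected. A gene that varies with the cytokine genes across cells therefore differs between the classes, in either direction, partly by that choice. NKT-gene T cells had less of the immediate early and heat shock genes, which are induced within minutes by activation or by tissue dissociation. Of 18 tested genes 16 were lower, with a median log2 difference of -1.21 against -0.0038 over all genes. Fos was at 2.71, 90.4, 243 and 37.6 CPM in NKT-gene T cells and 246, 939, 723 and 487 CPM in the cells with several cytokine genes (log2 difference -2.85 ± 0.25 SE, edgeR adjusted p = 3.71e-09). Junb was at 152, 246, 522 and 387 CPM against 978, 1398, 1569.8 and 1061 CPM (log2 difference -2.07 ± 0.14 SE, edgeR adjusted p = 5.96e-12), and Gadd45b, a stress response gene, was lower too (log2 difference -4.14 ± 0.23 SE, edgeR adjusted p = 1.06e-13). Of 8 tested cell cycle genes 7 were lower. Top2a had 1 UMI in all NKT-gene T cells and 153, 71.2, 92.8 and 32.9 CPM in the other class, and Ube2c was at least 24.6-fold lower.

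On the other side, Gzmb was at 317, 715, 637 and 1702 CPM in NKT-gene T cells and 217, 381, 219 and 352 CPM in the cells with several cytokine genes (log2 difference 1.31 ± 0.16 SE, edgeR adjusted p = 1.92e-06). Fcer1g, Cd7, Trdc and S100a4 were also higher, by 2.70, 1.60, 2.28 and 1.56 on the log2 scale, all past the test. The Trdc difference rests on 64 UMIs in 7 of 176 NKT-gene T cells and 31 UMIs in 5 of 320 cells with several cytokine genes. All 7 of these NKT-gene T cells carried Fcer1g, Tyrobp or Ncr1. With the cells carrying Fcer1g, Tyrobp or Ncr1 left out of both classes, the log2 difference was -0.078 for Gzmb and -0.35 for Cd7. Kupffer cell markers summed to 5.41, 140, 50.1 and 59.1 CPM in NKT-gene T cells and to 8.98, 269, 37.5 and 421 CPM in the cells with several cytokine genes. Dendritic cell markers summed to 78.5, 164, 35.8 and 10.7 CPM against 57.4, 422, 57.3 and 506 CPM, and the part of both lists in the result was not tested.

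Between the zones, 14 genes were lower in NKT-gene T cells of the portal vein libraries than in those of the central vein libraries, among them 4 chemokine genes and 3 of 17 tested immediate early and heat shock genes. In these sums fewer transcribing cells and less RNA per cell cannot be told apart. These 14 were all that passed of 3514 genes (0.398%), and the genes of the rule were left out of this test too. With DESeq2 only Ccl3 and Ccl5 passed, and after thinning only Ccl3, Ccl4, Ccl5 and Rgs1, so no immediate early or heat shock gene passed in either. Ccl5 was at 2184 and 2654 CPM in PV1 and PV2 and at 5018 and 4993 CPM in CV1 and CV2 (log2 difference -1.07 ± 0.09 SE, edgeR adjusted p = 3.29e-07). Ccl4 was at 5.41 and 214 CPM in the PV libraries and 1048 and 1482 CPM in the CV libraries (log2 difference -3.71 ± 0.54 SE, edgeR adjusted p = 0.00109), and Ccl3 at 5.41 and 20.5 CPM in PV1 and PV2 against 182 and 231 CPM in CV1 and CV2 (log2 difference -4.12 ± 0.43 SE, edgeR adjusted p = 1.39e-05). Xcl1 was at 152 and 411 CPM in PV1 and PV2 against 1102 and 741 CPM in CV1 and CV2 (log2 difference -1.79 ± 0.30 SE, edgeR adjusted p = 0.00446). For each of these the 2 zones did not overlap.

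The regulators of G protein signalling Rgs1 (log2 difference -1.81 ± 0.26 SE, edgeR adjusted p = 0.00109) and Rgs2 (log2 difference -2.38 ± 0.46 SE, edgeR adjusted p = 0.0186) were lower. Of 17 tested immediate early and heat shock genes 3 were lower, with a median log2 difference of -0.84 over the list against -0.01 over all genes. Hspa1b, an inducible heat shock protein, was at 259.7 and 472 CPM in PV1 and PV2 against 998 and 741 CPM in CV1 and CV2 (log2 difference -1.30 ± 0.23 SE, edgeR adjusted p = 0.00828), and Dnajb1, its cochaperone, and Junb differed by -1.86 and -1.26. The innate genes Tyrobp, Ncr1 and Klra7, an NK receptor of the Ly49 family, differed by -2.56, -2.69 and -3.13, and Malat1, a nuclear RNA, by only -0.14. Few cells carried these innate genes. Klra7 was found in 6 of the 44 cells with Fcer1g, Tyrobp or Ncr1 and in 2 of 132 others. Tyrobp was found in 31 and Ncr1 in 16 of these 44 cells, of which PV1 held only 3.

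Genes higher in PV did not pass. Capg, an actin-capping protein, was at 89.3 and 53.4 CPM in PV1 and PV2 against 10.7 and 16.1 CPM in CV1 and CV2 (log2 difference 2.45 ± 0.57 SE, edgeR adjusted p = 0.0646), and Ifngr1, a chain of the interferon-gamma receptor, at 611 and 550.5 CPM in PV1 and PV2 against 365 and 333 CPM in CV1 and CV2 (log2 difference 0.71 ± 0.19 SE, edgeR adjusted p = 0.228). Gzmb was at 317 and 715 CPM in PV1 and PV2 against 637 and 1702 CPM in CV1 and CV2, where PV2 stood above CV1, and did not pass (edgeR adjusted p = 0.232). None of the 7 tested genes of recirculation, the 16 tested transcription factors or the 14 tested receptor genes passed.

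The share of cells that carry innate genes was low in PV1 alone, and PV2 matched the CV libraries, as given above. Within these cells Ccl4 was at 0, 418, 3055 and 4148 CPM in PV1, PV2, CV1 and CV2, and Ccl5 at 1185, 4996, 9301 and 9566 CPM. In the cells without innate genes Ccl4 was at 5.75, 96.8, 0 and 41.3 CPM and Ccl5 at 2247, 1317, 2782 and 2522 CPM, so most of the Ccl4 lay in the subset and Ccl5 was lower in both PV libraries in either part. With the subset left out, 0 of 2382 genes passed in edgeR and 117 had an unadjusted p under 0.05, but the subset was set by Tyrobp and Ncr1, which are themselves among the 14 genes. Without CV2 0 genes passed, and without PV2 39 and without CV1 30. With the limit on cytokine genes lifted 0 passed of 7022, with 256 at an unadjusted p under 0.05. The count of genes thus changed with single libraries and with the limits that chose the cells.

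**Figure D5:**
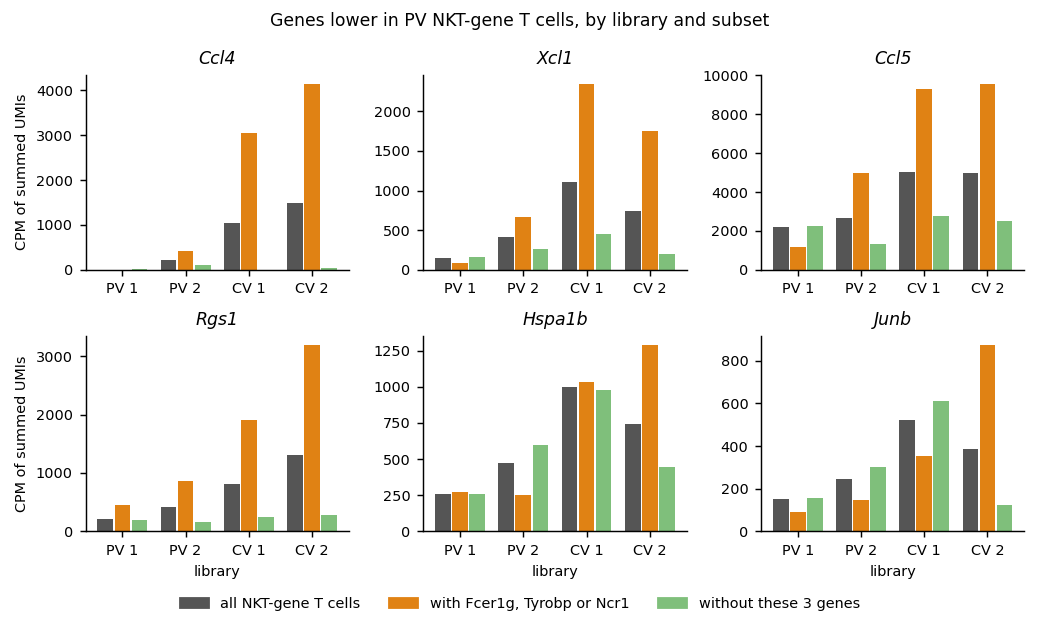
CPM of summed UMIs for 6 genes that were lower in the PV libraries, in all NKT-gene T cells (grey), in those with Fcer1g, Tyrobp or Ncr1 (orange) and in those without these 3 genes (green), per library (horizontal axis), with no error bars because each bar is 1 sum. For Ccl4 and Rgs1 the orange bars of CV1 and CV2 are the highest, and for Hspa1b and Junb the green bar of CV1 is also high.

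Whether the zone difference itself differed between classes was tested with an interaction term. Against T cells with Cxcr6 alone, where the CV sums rest on 4 and 11 cells, 15 of 3256 genes passed (0.461%), 5 with a more positive (0.154%) and 10 with a more negative (0.307%) difference in NKT-gene T cells. In NKT-gene T cells Ccl5 was at 2184 and 2654 CPM in PV1 and PV2 and at 5018 and 4993 CPM in CV1 and CV2. In T cells with Cxcr6 alone it was at 3964 and 2387 CPM in the PV libraries and 2580 and 1730.4 CPM in the CV libraries, and the difference of the zone differences passed (log2 difference -1.75 ± 0.31 SE, edgeR adjusted p = 6.64e-05). DESeq2 called 5 genes, and 5, 2 and 1 passed without PV1, without PV2 and without the innate gene cells; Ccl5 was not among them in any of these. Gzma, Fcer1g, Klra7 and Klra9 also passed, but had 0 UMIs in the CV cells with Cxcr6 alone, so the sizes of their differences are not given. Against the cells with several cytokine genes, 12 of 5710 genes passed (0.21%), 1 more positive (0.0175%) and 11 more negative (0.193%), and DESeq2 called 0, with 24 at an unadjusted p under 0.05. There Ccl5 was at 2411 and 1979.5 CPM in PV1 and PV2 against 2460.4 and 1942 CPM in CV1 and CV2 (log2 difference -1.04 ± 0.14 SE, edgeR adjusted p = 0.0001), and Xcl1 at 792 and 473 CPM in PV1 and PV2 against 498 and 662 CPM in CV1 and CV2 (log2 difference -1.90 ± 0.37 SE, edgeR adjusted p = 0.014). Without CV2, 5 genes passed and neither Ccl5 nor Xcl1 was among them; Xcl1 also did not pass without PV1, without CV1 or without the innate gene cells. For both genes the zones overlapped in those cells. The NKT-gene T cell sums are the same libraries in both interaction tests.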

How the data were processed

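UMI counts per gene and cell barcode, as the authors deposited them, were used for 2 PV and 2 CV libraries of 10x 3′ chemistry. The submitters' processing notes name Cell Ranger 4.0.0 and the mm10 build; how cells were called is not stated in those notes. Cells needed at least 200 genes and at most 10% mitochondrial UMIs, and a barcode stayed only in the library with at least 70% of its UMIs. The cells of interest, the gene lists and the tests were chosen with earlier results of these data known.

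Counts were summed per library and class, with sums of under 10 cells left out, except in the comparison with NK cells and ILC1 and in the interaction with Cxcr6-only T cells, where sums of as few as 4 cells were used. The sums were tested with edgeR 4.0.16 in R 4.3.3 (quasi-likelihood test, TMM scaling, filterByExpr, Benjamini-Hochberg adjustment over all genes tested, threshold 0.05). The library was a block between classes. Genes of the rule were left out of every gene test, those between zones and of the interactions included. Each SE beside an edgeR log2 difference was worked back from the test and is not a fitted standard error. It is the absolute log2 difference divided by the square root of the quasi-likelihood F value. DESeq2 1.42.0 was an alternative, doublets were called with scrublet in scanpy 1.11.5 at an expected 3%, and cells were thinned to 3000 UMIs to compare shares. Genes were named by a fixed rule, up to 12 per direction by size among those past the test with at least 20 UMIs, the leading members of each list and a set of lineage genes. The innate gene subset, Gm42418, Lyar's cell count and the comparison with cells carrying several cytokine genes were chosen after values were seen. Intervals and floors of 3 UMIs cover counting error only. The scripts were tested on simulated data. The libraries of a zone differed beyond sampling noise (chi-square over its degrees of freedom 1.73 in PV and 1.89 in CV). Values of a few genes are not reported here.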

Additional observations from a re-analysis of the deposited data

Results flagged for a closer look

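These genes are listed because their zone difference (PV minus CV, log2 scale) differed between NKT-gene T cells and another class by an edgeR interaction test. Against T cells with Cxcr6 alone, of which CV1 held 4 and CV2 11, the difference was more positive in NKT-gene T cells for Gadd45b by 4.71, Gpr183 by 4.38, Nfkbia by 4.31, Hspd1 by 2.45 and Bcl2a1b by 2.20. There it was more negative for Gzmb at -5.48, Ccl4 at -4.29, Cd7 at -3.45, Rgs1 at -3.30, Ccl5 at -1.75 and Malat1 at -0.87. The sums of T cells with Cxcr6 alone held only 16279 UMIs in CV1 and 110377 in CV2. Gzmb was near the floor in that of CV2, so the size of its difference is uncertain.

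Against the cells with several cytokine genes it was more positive for Wfdc17, by 5.28. It was more negative for Ccl4 at -5.12, Ccl3 at -4.27, Sulf2 at -2.96, Rgs2 at -1.99, Xcl1 at -1.90, Rgs1 at -1.59, Fgl2 at -1.37, Gzmb at -1.18, Junb at -1.05 and Ccl5 at -1.04. Kupffer cell markers in the cells with several cytokine genes were at 8.98, 269, 37.5 and 421 CPM in PV1, PV2, CV1 and CV2. Dendritic cell markers there were at 57.4, 422, 57.3 and 506 CPM. The part of such RNA in these differences, that of Wfdc17 among them, was not tested. Ccl4, Ccl5, Rgs1 and Gzmb were in both lists, which share the NKT-gene T cell sums, so the lists are not independent.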

How the results depend on the processing

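Of 2157 values for 149 named genes, 1813 kept their direction and side of the threshold, 317 lost the call, 20 gained one and 7 reversed. Without the cells carrying Fcer1g, Tyrobp or Ncr1, the reversed values were Gzmb at 0.50 between zones, Ccl4 at 4.76 in the interaction with Cxcr6-only T cells, Cd7 at -0.35, Gzmb at -0.078 and Ccl5 at -0.025 against the cells with several cytokine genes, and Rgs2 at 0.26 and Gzmb at 0.72 in their interaction. The cause was not tested.

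Zone calls (14) numbered 2 with DESeq2, 34 with no filter, 9 in cells of at least 3000 UMIs, 4 after thinning, 0 with the cytokine limit left out and 0 without the innate gene cells, and 0 to 39 with 1 library left out. Whether the replicate numbers pair the samples cannot be shown with 2 libraries a zone (correlation of deviations 0.0909), and the replicate block gave 5 calls, 4 of them shared. Calls against Cxcr6-only T cells (4) numbered 2 with sums of at least 4 cells, 46 with no filter, 1 without the library block, 1 with at least 500 genes and at most 5% mitochondrial UMIs, 8 with the cytokine limit left out, 2 without innate gene cells and 6 to 25 with 1 library left out. Calls against T cells without Cxcr6 or NKT genes (350) numbered 214 with DESeq2, 226 after thinning and 164 to 374 with 1 library left out. Calls against NK cells and ILC1 (165) numbered 97 with DESeq2, 270 with no filter, 87 at 3000 UMIs, 70 with both Klrb1c and Zbtb16 required, 310 with the cytokine limit left out and 101 to 168 with 1 library left out. Calls between cells with Zbtb16 and Klrb1c alone (2) numbered 4 with sums of at least 4 cells, 1 with DESeq2, 1 with relative log expression scaling, 7 with no filter, 1 without the block, 4 with shared barcodes kept, 1 at 3000 UMIs and 6 after thinning. Calls against cells with several cytokine genes (119) numbered 40 with DESeq2, 215 with no filter, 62 without the block, 42 after thinning, 72 without innate gene cells and 76 to 101 with 1 library left out. Interaction calls with Cxcr6-only T cells (15) numbered 55 with sums of at least 10 cells, 5 with DESeq2, 143 at 3000 UMIs, 9 after thinning, 1 without innate gene cells and 2 to 55 with 1 library left out. Those with several-cytokine cells (12) numbered 0 with DESeq2, 20 with no filter, 5 after thinning, 5 without innate gene cells and 5 to 20 with 1 library left out.

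The PV minus CV share of kept cells was -2.30 points without PV1, within -2.30 to 7.11 over libraries left out. The share of T cells was 2.02 points without PV2, 13.1 without CV1, 2.04 with shared barcodes kept and 3.84 with both Klrb1c and Zbtb16 required, within -16.6 to 13.1. The share of Cxcr6+ T cells was 3.80 points with both genes required and -21.9 to -2.94 with 1 library left out. No fit could be made with both genes required for the zone comparison and those with other T cells, for the Zbtb16 comparison with stricter cell limits, without innate gene cells, without PV1 or without PV2, or for NK cells and ILC1 with sums of at least 10 cells. Few cells per sum and 2 libraries per zone limit all of these counts.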
